A study of Rattus norvegicus with 24 samples.

Results

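The annexin genes Anxa1, Anxa2, Anxa3, Anxa4, Anxa5, Anxa6, Anxa7 and Anxa11 were examined in the chronically injured rat brain. A locus was taken as a member when its gene name in the deposited annotation equalled 1 of these symbols, which gave 1 locus for each of the 8 genes, out of 26641 loci with a gene name and 42334 loci in all. Messenger RNA had been sequenced from perilesional cortex and from ipsilateral thalamus of adult male Sprague-Dawley rats 3 months after left lateral fluid-percussion injury (TBI), in which a pulse of saline strikes the intact dura through a craniectomy, or after a sham operation. Sham-operated controls had the anaesthesia and the craniectomy without the impact, so both groups carried an opened skull. Each group held 6 rats, and each of the 12 rats gave both regions, for 24 libraries in 4 groups. The 6 TBI rats were selected from the animals of a larger cohort in which magnetic resonance imaging had shown a bright rim around the lesion. They are thus only some of that subset of injured animals.

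Annexins are proteins that bind phosphatidylserine-rich membranes when calcium rises, through repeated core domains, and each differs in the N-terminal tail that recruits partners such as S100 proteins. They take part in membrane repair, vesicle traffic, exocytosis and the handling of apoptotic cells. In brain, Anxa1 and Anxa2 are best known from glia, leptomeninges, vessels and invading leukocytes, Anxa3 from microglia, and Anxa6 from neurons.

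The stretches before the RefSeq start sites of the 3 genes that were higher after TBI in both regions are shown because these genes had the largest rises of the family. Of the 8 annexins, 7 were in the RefSeq promoter table (build GRCr8). Capitals mark the TATA box letters TATAAA. They also mark the AP-1 site, searched as TGANTCA. The core of a PU.1 site, searched as GAGGAAG, is in capitals too. Each was searched on both strands of the 250 bases before the start. The stretches lie at chr1:227303733-227303882 on the minus strand, chr8:78986102-78986251 on the plus strand and chr14:13085598-13085747 on the minus strand, and each ends at the base before the start.
Anxa1: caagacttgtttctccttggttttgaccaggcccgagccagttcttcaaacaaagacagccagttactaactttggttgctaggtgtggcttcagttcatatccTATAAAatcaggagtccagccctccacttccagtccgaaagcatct
Anxa2: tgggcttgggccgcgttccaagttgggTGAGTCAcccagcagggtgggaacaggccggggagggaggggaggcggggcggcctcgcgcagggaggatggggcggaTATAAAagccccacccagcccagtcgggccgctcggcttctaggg
Anxa3: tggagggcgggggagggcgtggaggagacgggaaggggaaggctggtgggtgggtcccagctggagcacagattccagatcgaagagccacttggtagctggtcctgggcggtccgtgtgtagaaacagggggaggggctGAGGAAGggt
TATAAA stood 46 to 41 bases before the start of Anxa1 and 45 to 40 bases before that of Anxa2. Anywhere in the 250 bases, on either strand, it occurred in 12.9% of 33469 promoters. On the sense strand 45 to 15 bases before the start it occurred in 1.62%, a window that holds the match of Anxa2 but not that of Anxa1. The AP-1 letters occurred once in the 7 annexins, as TGAGTCA, 123 to 117 bases before the start of Anxa2, against 6.34% of all promoters. The PU.1 letters occurred 10 to 4 bases before the start of Anxa3, against 10.2% of all promoters. GGGCGG, the GC box, was found before Anxa2, Anxa3, Anxa4, Anxa5 and Anxa11, against 30.5% of all promoters. These are matches of letters and say nothing of binding. Anxa6 was not in the table.

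Sequencing gave 30568927 to 54608922 fragments per library. The deposited values were normalized counts, and the floor set by 3 fragments lay at 2.06 to 3.76 normalized counts. Every annexin stood far above it, with a group mean of 103 fragments at the lowest (Anxa1, sham thalamus) and 9123 at the highest (Anxa6, sham cortex). Markers of the dissected regions matched the labels, with a sum over 5 thalamic neuron markers of 18329 to 32957 in thalamus libraries against 1842 to 2374 in cortex libraries. Some libraries carried RNA of neighbouring tissue. The sum over 6 choroid plexus markers was 259979 in the thalamus of TBI rat 45, 107245 in that of sham rat 50 and 67663 in that of sham rat 34, against 474 to 1620 in the other 9 thalamus libraries. In cortex it was 32303 in TBI rat 45, 23466 in sham rat 26 and 11169 in sham rat 34, against 629 to 2655 in the other 9. The sum over 6 fibroblast and meningeal markers was 21275 in the thalamus of rat 45 and 5194 in that of rat 34, against 1104 to 1808 in the other 10. No choroid plexus marker of the 6 passed the test of TBI against sham in either region. As a few libraries held most of this signal, their standard errors were wide, 0.32 to 1.19 in cortex and 0.79 to 1.91 in thalamus. The test therefore does not show equal amounts in TBI and sham libraries. TBI effects on the annexins that rest on these libraries are given with and without them. Fold changes of other genes and of markers, and those of thalamus against cortex, are given with all libraries only.

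In the comparison of TBI animals with sham-operated controls, Anxa1, Anxa2 and Anxa3, rose in both regions, and Anxa6 fell in both. Anxa5 passed the test in cortex, and Anxa4 and Anxa7 passed it in thalamus, but the test of a regional difference gave these genes adjusted p values of 0.254 to 0.564. Anxa11 passed in neither. In the perilesional cortex, 4 of the 8 annexins were higher and 1 was lower at an adjusted p under 0.05, where 29.2% of 15493 loci passed, 14.3% higher and 14.9% lower. In 4 of the 8, the TBI and sham libraries did not overlap, against 12.5% of all loci. In the ipsilateral thalamus, 5 annexins were higher and 1 was lower, where 35.4% of 15564 loci passed, 14.5% higher and 20.9% lower, and 4 did not overlap, against 18.2% of all loci. The median log2 fold change was 0.16 in cortex and 0.21 in thalamus over the 8 annexins, against -0.0096 and -0.023 over all loci. Without the libraries rich in choroid plexus markers, 3 annexins remained higher in each region (Anxa1, Anxa2 and Anxa3) and Anxa6 remained lower.

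**Figure D1:**
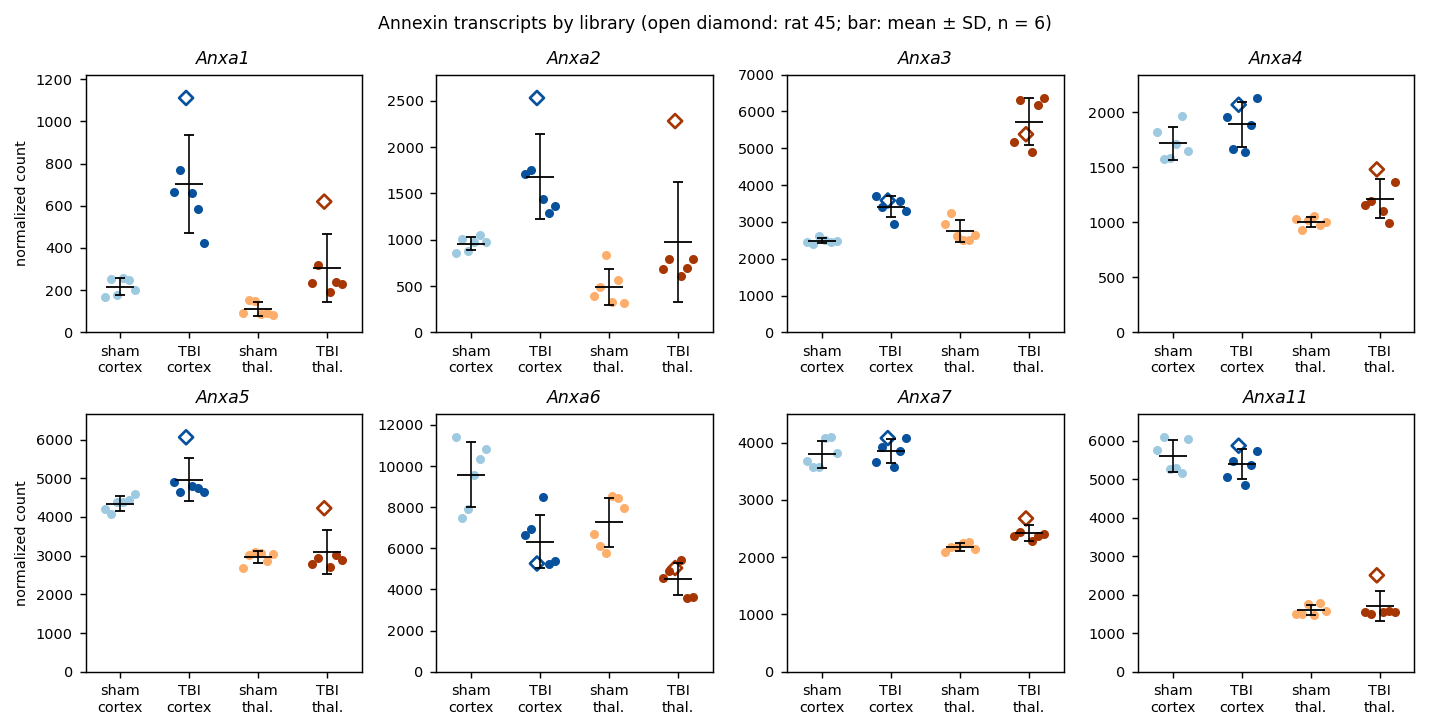
Normalized count (vertical axis, linear, from 0) of each annexin in the 24 libraries, by group, with 6 rats a group; bars give the mean ± SD and open diamonds mark rat 45. For Anxa1 and Anxa3 every TBI library lay above every sham library of its region, and rat 45 was highest of the TBI libraries in both regions for Anxa1, Anxa2, Anxa5, Anxa7 and Anxa11.

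Anxa1 (chromosome 1, 245192876 to 245208910 in the files' coordinates) encodes the glucocorticoid-induced annexin that signals through formyl peptide receptors and restrains leukocyte recruitment. In sham cortex its normalized count ran from 166 through a median of 225 to 255, and in TBI cortex from 423 through 664 to 1111. In sham thalamus it ran from 81.1 through 93.0 to 154, and in TBI thalamus from 192 through 236 to 620. All 6 TBI libraries exceeded all 6 sham libraries in each region, and the highest in both was rat 45. The log2 fold change was 1.65 (SE 0.18, adjusted p = 2.65e-05) in cortex, a 3.14-fold rise, and 1.40 (SE 0.26, adjusted p = 8.25e-04) in thalamus, a 2.63-fold rise. By size of rise it stood 101st of 15493 loci in cortex and 167th of 15564 in thalamus. The difference between the regional effects was -0.25 with a 95% interval of -0.95 to 0.44 (adjusted p = 0.714). The order of the 4 groups was TBI cortex, TBI thalamus, sham cortex and sham thalamus, and the ranges overlapped between neighbours other than sham cortex and sham thalamus.

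Anxa2 (chromosome 8, 80014370 to 80050842) encodes the annexin that pairs with S100a10 and gathers plasminogen and its activator at the cell surface. In sham cortex it ran from 862 through 976 to 1047, and in TBI cortex from 1290 through 1577 to 2531, with no overlap. The cortical log2 fold change was 0.77 (SE 0.13, adjusted p = 5.74e-04), a 1.71-fold rise. In sham thalamus it ran from 316 through 439 to 838, and in TBI thalamus from 608 through 742 to 2282. Here the groups overlapped, since sham rat 34 stood above all TBI rats but rat 45, and those were the 2 thalamus libraries richest in meningeal markers. The thalamic log2 fold change was 0.91 (SE 0.30, adjusted p = 0.0318). Without rats 34 and 45 it was 0.80 (SE 0.15, adjusted p = 0.00142), and without rats 34, 45 and 50 it was 0.92 (SE 0.13, adjusted p = 3.09e-04). Leaving out sham rat 26, 38 or 55 alone raised the adjusted p to 0.0599, 0.0683 and 0.0750. The regional effects differed by 0.13 (95% interval -0.60 to 0.86). RefSeq lists 8 pseudogenes of Anxa2, so reads could have been shared with them and its level is uncertain to that extent. The Anxa2 locus also overlapped 1 other locus, and what this did to its count was not tested.

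Fibroblast and meningeal markers moved with Anxa1 and Anxa2 in cortex. All 6 of these markers were higher in TBI cortex, and their sum was 6828 to 8993 in sham cortex and 10388 to 23338 in TBI cortex, with rat 45 highest and no marker at 0. In thalamus 0 of the 6 passed, with sums of 1104 to 5194 in sham and 1229 to 21275 in TBI libraries. Perivascular macrophage markers were higher for 2 of 4 in cortex and 0 of 4 in thalamus, with sums of 605 to 769 and 680 to 1416 in sham and TBI cortex and of 915 to 1297 and 810 to 2581 in sham and TBI thalamus. Of 7 astrocyte markers 5 were higher in each region, while Slc1a2, a glutamate transporter, was lower in cortex at -0.21 (adjusted p = 0.0318). The sum of the 7 was 263397 to 291628 in sham and 299569 to 350600 in TBI cortex, and 174072 to 187890 in sham and 272602 to 330703 in TBI thalamus. Slc1a2 was the largest part of the cortical sum, with means of 185200 in sham and 160246 in TBI libraries. Gfap, Aqp4 and Vim had cortical log2 fold changes of 2.26, 0.68 and 1.47. The median of the 7 was 0.33 in cortex and 0.42 in thalamus. Among vascular markers, 3 of 3 mural cell and 3 of 7 endothelial markers were higher in thalamus, and 1 of 3 and 0 of 7 in cortex. The mural sum was 11440 to 14561 in sham and 12196 to 15888 in TBI cortex, and 10188 to 13683 in sham and 13490 to 16478 in TBI thalamus. The endothelial sum was 13985 to 16580 and 15011 to 16803 in cortex, and 10749 to 14335 and 12407 to 17369 in thalamus, for sham and TBI libraries. Of 3 ependymal markers 3 were higher in cortex and 0 in thalamus. Their sum was 953 to 1100 in sham and 1089 to 1932 in TBI cortex. In thalamus it was 803 to 1544 in sham and 1012 to 1788 in TBI libraries. In 3 sham cortex libraries 1 of the 3 was at 0. Rarres2 was the largest part of these sums, with means of 992 in sham and 1256 in TBI cortex. Ccdc153 had means of 16.4 in sham and 117 in TBI cortex, against 332 and 345 in sham and TBI thalamus. Tmem212 had means of 1.002 in sham and 38.8 in TBI cortex, against 190 and 197 in sham and TBI thalamus. The sums thus do not show the size of the cortical change in Ccdc153 and Tmem212. The part of any of these cell types in the rise of Anxa1 and Anxa2 was not tested. In tissue samples more cells of a type and more RNA per cell cannot be told apart. Without rats 26, 34 and 45 the cortical log2 fold changes were 1.35 for Anxa1 (SE 0.15, adjusted p = 2.47e-04) and 0.58 for Anxa2 (SE 0.094, adjusted p = 0.00231). Without rats 34, 45 and 50 the thalamic value of Anxa1 was 1.24 (SE 0.19, adjusted p = 5.92e-04).

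**Figure D2:**
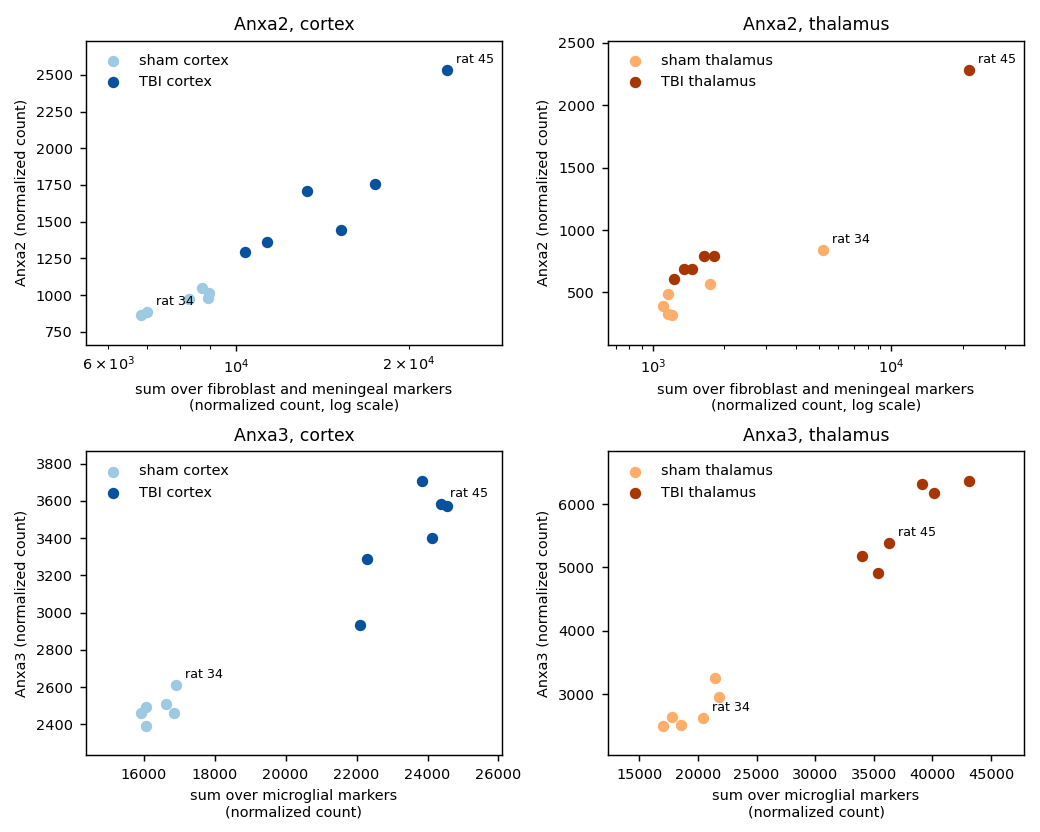
Normalized count of Anxa2 against the summed fibroblast and meningeal markers (log horizontal axis), and of Anxa3 against the summed microglial markers (linear axis), in cortex and thalamus; each point is 1 library and rats 34 and 45 are named. In thalamus, rats 34 and 45 lay apart on the meningeal axis with the highest Anxa2 of their groups, whereas for Anxa3 the TBI libraries lay above the sham libraries on both axes and rat 45 was within its group.

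Anxa3 (chromosome 14, 14305732 to 14368188) is an annexin of microglia and other phagocytes in brain. It ran from 2391 through 2478 to 2609 in sham cortex and from 2933 through 3485 to 3708 in TBI cortex. In sham thalamus it ran from 2496 through 2633 to 3256, and in TBI thalamus from 4904 through 5779 to 6367. No TBI library overlapped a sham library in either region, and rat 45 lay within its group. The log2 fold change was 0.45 (SE 0.055, adjusted p = 4.73e-05) in cortex, a 1.37-fold rise, and 1.06 (SE 0.082, adjusted p = 6.43e-07) in thalamus, a 2.08-fold rise. The thalamic rise exceeded the cortical one by 0.60 (SE 0.10, 95% interval 0.40 to 0.81, adjusted p = 5.93e-04). Anxa3 was the 1 annexin of 8 to pass the test of a regional difference, which 7.26% of 15678 loci passed, 2.72% with the more positive effect in thalamus and 4.54% with the more negative one. Without both libraries of rat 45 the difference was 0.64 (adjusted p = 8.60e-04). The order of the groups was TBI thalamus, TBI cortex, sham thalamus and sham cortex, and all neighbours overlapped but the first and second.

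Microglial markers moved with Anxa3. Of 10 such markers 9 were higher in TBI cortex and 10 in TBI thalamus. The effect was larger in thalamus than in cortex for all 10, by log2 differences of 0.17 to 0.75, and 6 passed the test of that difference. Their sum was 15916 to 16914 in sham cortex, 22087 to 24553 in TBI cortex, 17008 to 21842 in sham thalamus and 34011 to 43135 in TBI thalamus, with no marker at 0 in any library. Their median log2 fold change was 0.58 in cortex and 0.98 in thalamus. The part of microglial number in the rise of Anxa3 was not tested.

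Anxa6 (chromosome 10, 40092877 to 40148241) encodes the largest annexin, which has a doubled core and is abundant in neurons. In sham cortex it ran from 7493 through 9950 to 11402, and in TBI cortex from 5245 through 6007 to 8510. TBI rat 52 alone reached into the sham range, and the other 5 TBI libraries lay below it. In sham thalamus it ran from 5774 through 7347 to 8537, and in TBI thalamus from 3566 through 4715 to 5432, with no overlap. The log2 fold change was -0.61 (SE 0.13, adjusted p = 0.00302) in cortex, a fall of the fitted level to 0.657 of sham, and -0.68 (SE 0.12, adjusted p = 7.43e-04) in thalamus, to 0.622 of sham. Counted from the largest fall it stood 149th in cortex and 332nd in thalamus. The regional effects differed by -0.079, with a 95% interval of -0.48 to 0.32 that covers effects in either direction.

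In the comparison of groups, neuronal markers fell after TBI, as Anxa6 did. Of 6 neuronal markers 5 were lower in each region, with a median log2 fold change of -0.43 in cortex and -0.56 in thalamus. Their sum was 254971 to 283568 in sham cortex, 158085 to 238342 in TBI cortex, 167320 to 207158 in sham thalamus and 107128 to 137151 in TBI thalamus, with no marker at 0. The sum was mostly Snap25 and Syt1, with means of 42548 and 40310 in TBI thalamus. Rat by rat, this sum and Anxa6 did not keep the same order in the TBI libraries. In TBI cortex rat 24 had the lowest sum (158085), with Anxa6 at 6930. Rat 56 had the lowest Anxa6 there (5245), with a sum of 214558. In TBI thalamus rats 45 and 24 had the lowest sums (107128 and 116364), with Anxa6 at 5043 and 4880. Rats 56 and 63 had the lowest Anxa6 there (3566 and 3634), with sums of 135064 and 135392. In sham thalamus rat 38 was highest in both (207158 and 8537) and rat 34 lowest in both (167320 and 5774). In sham cortex rat 32 was lowest in both (254971 and 7493), while rat 50 had the highest sum (283568) and rat 26 the highest Anxa6 (11402). The thalamus libraries of rats 34 and 45 were among those rich in choroid plexus markers. The part of neurons in the fall of Anxa6 was not tested.

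Anxa4, Anxa5, Anxa7 and Anxa11 moved little. Anxa5 (chromosome 2, 142777612 to 142816925), the protein used as a probe of exposed phosphatidylserine, ran from 4065 through 4382 to 4599 in sham cortex and from 4638 through 4768 to 6060 in TBI cortex. The groups did not overlap, by a narrow margin between the highest sham and the lowest TBI library. Its log2 fold change was 0.19 (SE 0.062, adjusted p = 0.0344), and 0.12 (adjusted p = 0.161) without rats 26, 34 and 45. In thalamus it was 0.049 (95% interval -0.14 to 0.24, adjusted p = 0.712), with rat 45 at 4226 above the other 5 TBI libraries, which ended at 3013. The Anxa5 locus overlapped 2 other loci, and what this did to its count was not tested.

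Anxa7 (chromosome 15, 8355530 to 8383626), an annexin of exocytosis also called synexin, ran from 2083 through 2172 to 2271 in sham thalamus and from 2281 through 2386 to 2675 in TBI thalamus. The ranges were close but did not overlap, and the log2 fold change was 0.15 (SE 0.045, adjusted p = 0.0183), an 11.0% rise. Without rats 34 and 45 it was 0.12 (adjusted p = 0.0607). In cortex it was 0.023 (95% interval -0.088 to 0.13). RefSeq lists 4 pseudogenes of Anxa7, with which reads could have been shared, as for those of Anxa2.

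Anxa4 (chromosome 4, 183108898 to 183164898), known from epithelia, had a mean of 1004 ± 44.8 (SD, n = 6) in sham and 1215 ± 180 in TBI thalamus, and 5 of 6 TBI libraries lay above all sham libraries. Its log2 fold change there was 0.26 (SE 0.084, adjusted p = 0.0255), and 0.21 (adjusted p = 0.0614) without rats 34 and 45. In cortex it was 0.14 (95% interval -0.025 to 0.30, adjusted p = 0.191). Anxa11 (chromosome 16, 3833109 to 3877963), which tethers RNA granules to lysosomes for axonal transport, differed by -0.056 (95% interval -0.18 to 0.071) in cortex and 0.065 (-0.17 to 0.30) in thalamus. Its TBI thalamus libraries lay between 1499 and 1567 but for rat 45 at 2502.

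**Figure D3:**
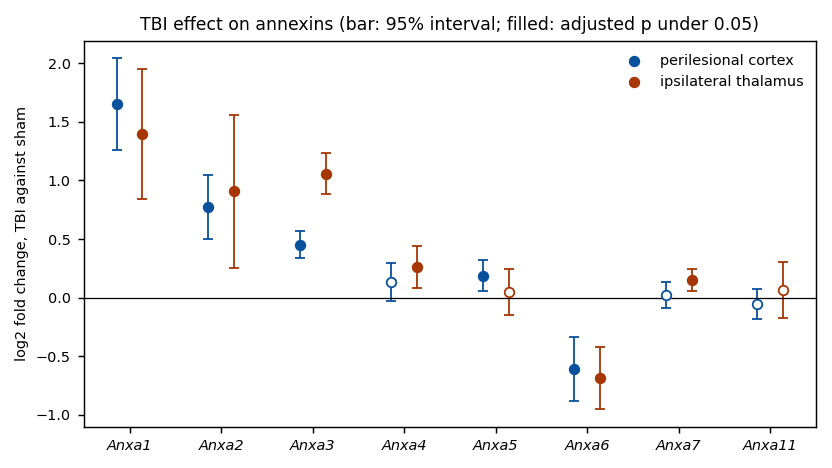
Log2 fold change of TBI against sham for the 8 annexins in perilesional cortex (blue) and ipsilateral thalamus (brown), from limma; bars give 95% intervals and filled points passed an adjusted p under 0.05. Anxa1, Anxa2 and Anxa3 lay above 0 and Anxa6 below 0 in both regions, and only Anxa3 had an effect that differed between regions by its own test.

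The regions were then compared within each surgical group. In sham rats 7 of the 8 annexins were lower in thalamus than in cortex and none was higher, where 61.4% of 15678 loci passed, 33.5% higher and 27.9% lower. Of the 8, 6 did not overlap, against 42.9% of all loci. Anxa11 had the largest gap, with 5599 ± 419 (SD, n = 6) in cortex and 1598 ± 132 in thalamus and a log2 fold change of -1.81 (SE 0.093, adjusted p = 6.35e-15). The others were Anxa2 at -1.06, Anxa1 at -1.01, Anxa7 at -0.80, Anxa4 at -0.77, Anxa5 at -0.55 and Anxa6 at -0.40, the last with overlapping ranges and an adjusted p of 0.0132. Anxa3 was at 0.14 (95% interval -0.010 to 0.28, adjusted p = 0.101). In TBI rats the same 7 genes were lower in thalamus, by log2 values of -0.48 for Anxa6 to -1.69 for Anxa11, and Anxa3 was higher at 0.74 (SE 0.071, adjusted p = 1.57e-09), with every thalamus library above every cortex library. There 60.6% of loci passed, 32.7% higher and 27.9% lower, and 5 annexins did not overlap, against 36.1% of all loci. Both comparisons share rats with the TBI comparisons and add no separate evidence on injury.

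The patterns of the 8 genes over the 24 libraries, each as z-scored log2 values, were compared with those of 15677 other loci by the root mean square difference, where 0 is an identical pattern. Nearest to Anxa1 were Vim, the intermediate filament vimentin, at 0.194 and Aebp1 at 0.269. Nearest to Anxa2 were Kank2 at 0.221 and Ifitm2 at 0.223, and nearest to Anxa3 were Laptm5, a lysosomal membrane protein of haematopoietic cells, at 0.179 and Golm1 at 0.186. For Anxa4 they were Atp8a1 and Nfib, for Anxa5 Tbx18 and Mrgprf, for Anxa7 Nov and Pde1a, and for Anxa11 Dkk3 and Boc. Anxa6 had no close match, its nearest being Slc25a25 at 0.503 and Socs2 at 0.505. Within the family the closest pairs were Anxa7 and Anxa11 at 0.213, Anxa4 and Anxa7 at 0.311, Anxa5 and Anxa11 at 0.365, Anxa5 and Anxa7 at 0.372 and Anxa1 and Anxa2 at 0.376. The farthest were Anxa3 and Anxa6, at 1.89. These values describe the 24 libraries, which share region, injury and depth.

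The partners and pathways of annexins were read from lists, beside shares over all loci of 14.3% higher and 14.9% lower in cortex and of 14.5% higher and 20.9% lower in thalamus. Of 8 S100 and EF-hand partners, 4 were higher and 0 lower in each region, with median log2 fold changes of 0.16 and 0.40. S100a10, the partner of Anxa2, ran from 1067 to 1473 in sham and from 1010 to 1303 in TBI cortex, with a log2 fold change of -0.12 (adjusted p = 0.266), and was higher in thalamus at 0.26 (adjusted p = 0.0228). Its regional effects differed by 0.38 (adjusted p = 0.0451). S100a11, which binds Anxa1, was higher in cortex at 0.87 (adjusted p = 0.00301) and stood at 0.78 in thalamus (adjusted p = 0.0646), where it ran from 56.7 to 145 in sham and from 96.6 to 368 in TBI libraries. S100a6, a partner of several annexins, was higher at 1.27 (adjusted p = 2.34e-05) and 1.52 (adjusted p = 3.54e-05), with no overlap in either region. S100a4 had the largest changes, at 2.83 and 2.41, and S100b was higher at 0.17 and 0.54. Pdcd6, Sri and Pef1, penta-EF-hand proteins, passed in neither region.

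For the receptors and induction of Anxa1, Fpr1 and Fpr3 were at the edge of detection, and no locus carried the name Fpr2, so that receptor was not analysed here. Fpr1 averaged 6.19 and 5.54 in sham and TBI cortex and 2.55 and 7.51 in sham and TBI thalamus, under the mean of 10 needed for a test, and Fpr3 averaged at most 0.904. Of the 5 genes tested on that list, 1 was higher in cortex and 1 lower in thalamus, near the shares over all loci, with medians of -0.070 and -0.17. Tsc22d3, the glucocorticoid-induced leucine zipper, stood at -0.079 (adjusted p = 0.484) in cortex and fell by 0.45 on the log2 scale in thalamus (adjusted p = 6.00e-04). Alox5ap, of leukotriene synthesis, was higher in cortex at 0.52 (adjusted p = 0.0162) and stood at -0.17 in thalamus (adjusted p = 0.344). Its regional effects differed by -0.68 (adjusted p = 0.0366).

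Of the genes of plasminogen activation, 3 of 7 were higher in cortex and 2 of 6 in thalamus, and none was lower, with medians of 0.35 and 0.23. Plau, urokinase, ran from 14.2 to 28.3 in sham and 32.1 to 59.8 in TBI cortex, and from 15.8 to 31.8 in sham and 71.6 to 169 in TBI thalamus. Its log2 fold change was 1.04 (adjusted p = 0.00177) and 2.22 (adjusted p = 1.07e-05), a regional difference of 1.18 (adjusted p = 0.0238). Plat, tissue plasminogen activator, was higher at 0.35 (adjusted p = 0.0247) and 0.53 (adjusted p = 1.21e-04), and Plg itself passed in neither region with means of 18.0 to 25.5. Of the membrane repair genes 2 of 7 were higher in cortex, and in thalamus 1 of 6 was higher and 1 lower, which is near the shares over all loci there; the medians were 0.0059 and 0.083. Myof, a ferlin, was higher at 0.30 (adjusted p = 0.00841) and 0.67 (adjusted p = 0.00770), while Dysf stood at 0.22 in both (adjusted p = 0.241 and 0.113). Capn1, a calcium-activated protease, was higher in cortex at 0.31 (adjusted p = 0.0143) and lower in thalamus at -0.32 (adjusted p = 9.71e-04), and these effects differed (adjusted p = 5.40e-04).

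Of the genes of phosphatidylserine exposure and recognition, 5 of 11 were higher in cortex, and in thalamus 3 were higher and 1 lower, with medians of 0.26 and 0.16. Xkr8 is among those higher in cortex, but its locus also carries the name Smpdl3b, so the count is not of Xkr8 alone. Axl, a receptor for phosphatidylserine-bound ligands, was higher at 0.27 (adjusted p = 0.00965) in cortex and 0.86 (adjusted p = 2.32e-06) in thalamus, a regional difference of 0.58 (adjusted p = 0.00159). Pros1, a ligand of that receptor family, was higher in both at 0.53 (adjusted p = 0.00119) and 0.79 (adjusted p = 2.12e-04). Stab1, a scavenger receptor, was higher in cortex at 0.85 (adjusted p = 3.63e-04) and stood at 0.65 in thalamus (adjusted p = 0.107). Its regional effects differed by -0.19 (adjusted p = 0.803). Of the other annexin genes, Anxa8 stood at 0.76 (adjusted p = 0.148) in cortex and 0.30 (adjusted p = 0.436) in thalamus, and Anxa9 passed in neither. Anxa10 and Anxa13 averaged at most 0.525 and 1.25 normalized counts in any group and were not tested.

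**Figure D4:**
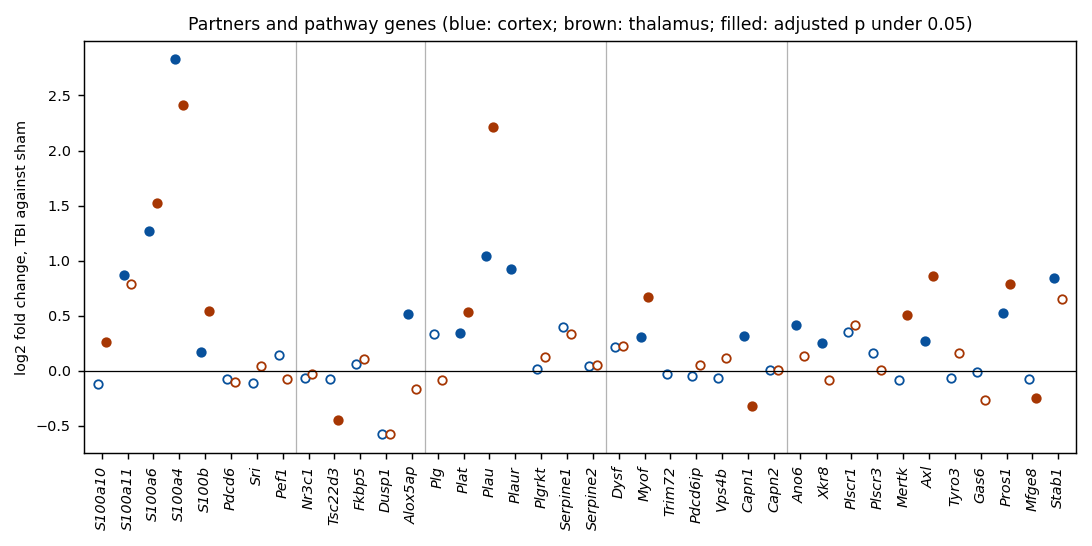
Log2 fold change of TBI against sham for the tested genes of 5 lists, left to right S100 and EF-hand partners, formyl peptide receptor and glucocorticoid-induced genes, plasminogen activation, membrane repair, and phosphatidylserine exposure and recognition; vertical lines part the lists and filled points passed an adjusted p under 0.05. S100a4, S100a6 and Plau lay highest, with values of 2.83, 1.27 and 1.04 in cortex and 2.41, 1.52 and 2.22 in thalamus.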

How the data were processed

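Poly(A) RNA from dissected tissue was sequenced in 24 libraries. The authors aligned stranded reads with TopHat2 2.0.11 and Bowtie2 2.2.2 and assembled transcripts with Cufflinks 2.2.1 on rat genome RGSC3.4 guided by the Ensembl Rnor 5.0 annotation; the files' coordinates name no build. Per the file headers and values, the deposited table is a signal table, in which each library's fragment counts per locus had been rescaled by 1 constant. Whole fragments were recovered from it: 100% of low values were whole within 0.1. No table column was without a sample (0 columns). Loci without a gene name (15693, 1.90 to 2.23% of the normalized counts) were left out.

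Groups came from the sample titles. Values were tested as log2(value + 1) with limma 3.58.1 (R 4.3.3, trended eBayes), over named loci with a mean of at least 10, with Benjamini-Hochberg adjustment over all tested loci and a threshold of 0.05. TBI was compared with sham in the 12 libraries of each region, and regions and the difference of effects in all 24. Fold changes of low genes are understated on this scale. edgeR 4.0.16 (quasi-likelihood) and DESeq2 1.42.0 were run on the recovered fragments as alternatives added after the data were seen, as were fits without libraries rich in choroid plexus markers. Intervals are at 95%. The tests were tried on simulated counts drawn independently for each library. The simulation held no effect shared by the libraries of a rat and no RNA of neighbouring tissue, so it does not speak to either. Both regions of a rat share its number, so they come from the same animal. Over 12 rats the same-rat correlation of deviations between regions had a median of 0.187 (0.00393 to 0.569). For different rats of the same surgical group the median was -0.0332. Since deviations were taken from group means, a value slightly below 0 is built in there, and it is no separate comparison.

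The annexins, the gene lists and the markers were chosen with earlier results of these data known. All 8 annexins are named, and for each the 2 loci with the smallest pattern difference; of each list the direct partners came first and then the largest changes past the threshold.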

Additional observations from a re-analysis of the deposited data

Results flagged for a closer look

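Of 32 sets of 6 libraries (an annexin in a group), 5 had a library apart from the others by Dixon's criterion. Chance gives about 1 in 20 for independent sets, but these sets share the same 24 libraries, so that rate does not gauge the 5. In each of the 5 the library apart was the highest, from TBI rat 45. In thalamus its normalized count was 620 for Anxa1 (next 319), 2282 for Anxa2 (next 794), 4226 for Anxa5 (next 3013) and 2502 for Anxa11 (next 1567), and in cortex it was 6060 for Anxa5 (next 4916). Among thalamus libraries, that of rat 45 held the highest sums of choroid plexus (259979) and of fibroblast and meningeal markers (21275), and among cortex libraries its sums were the highest too (32303 and 23338); their part in these values was not tested. The TBI effect on Anxa3 was larger in thalamus than in cortex by 0.60 on the log2 scale by the test of the difference itself.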

How the results depend on the processing

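Of 320 counts of annexins called under an alternative, 317 stayed within 1.5 times the main count; the number higher in thalamus was 2 in place of 5 at an adjusted p threshold of 0.01, 3 without the thalamus libraries of rats 34 and 45, and 3 without those of rats 34, 45 and 50. Of 1280 values of single annexins, 1250 kept their direction and side of the threshold, 21 lost their call and 9 changed sign, none of the 9 past the threshold. With 1 library left out, Anxa5 in thalamus ran from -0.044 (without rat 45) to 0.084; it was -0.030 without rats 34 and 45 and -0.040 without rats 34, 45 and 50. Anxa11 in thalamus ran from -0.052 (without rat 45) to 0.097, and was -0.025 without rats 34 and 45. Anxa7 in cortex became -0.027 without rats 26, 34 and 45. With 1 library left out, the regional difference ran from -0.14 to 0.012 for Anxa6 (without the cortex of rat 52) and from -0.15 (without the thalamus of rat 45) to 0.30 for Anxa2, which was -0.023 without both libraries of rat 45. The cortical call of Anxa5 was also lost with all 24 libraries in 1 fit (adjusted p = 0.0858) and without any of 5 single libraries (adjusted p = 0.0543 to 0.0703), and that of Anxa4 in thalamus without rat 50 (0.0502) or rat 63 (0.0598). The cause of these changes was not tested. In thalamus the split of all calls moved with scaling, from 2259 higher and 3257 lower to 2796 higher and 2357 lower with TMM. Fitting the rat as a replicate block, by a consensus correlation of 0.135 or as within-rat differences, changed no annexin's call; with the block, Anxa3 still differed between regions by 0.60. edgeR and DESeq2 on recovered fragments gave the main calls for all 8 annexins in all 5 comparisons; over all loci edgeR called 4435 in cortex and 5122 in thalamus, against 4531 and 5516. Summing several loci of a name was not run, since each annexin has 1 locus.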

Other observations

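Some rats held the same place for Anxa6 in both regions and others did not, which was noticed after the values were seen and was not tested. Sham rats 32 and 34 had the 2 lowest values of their group in cortex (7493 and 7914) and in thalamus (6109 and 5774). TBI rat 52 was the highest of its group in both (8510 and 5432), and rats 56 and 63 were among the lowest in both, with 5245 and 5363 in cortex and 3566 and 3634 in thalamus. Against these, TBI rat 45 was second lowest in cortex (5262) and second highest in thalamus (5043), and sham rat 26 was highest in cortex (11402) and at 6717, the third lowest, in thalamus. For Anxa3, rat 52 was the lowest TBI rat in both regions (2933 and 4904).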
